A study of Mus musculus with 24 samples.

Results

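The genes described here are 10 mouse genes of the hypoxia response governed by hypoxia-inducible factor 1 (HIF-1), out of 14769 genes measured in the series. They were chosen by symbol: Hif1a, Egln1, Egln3, Pdk1, Slc2a1, Pfkfb3, Vegfa, Adm, Bnip3 and Ddit4. Total RNA of cortex was sequenced from male mice aged 3 to 4 months after transient occlusion of the middle cerebral artery, a filament model of ischemic stroke, with 1 h of occlusion and 1 day of reperfusion. The 24 libraries formed 4 groups of 6, CL and PI from WT animals and CL and PI from KO animals. KO animals lack the circular RNA ciRS-7 (Cdr1as) and WT animals do not. The labels give the strain of all animals, WT included, as C57BL/6N-Cdr1asem1Nikr, and all groups had the surgery. No group without surgery was analysed here, so both CL and PI come from operated animals. The labels do not spell out CL and PI, which are kept here as written, and each animal gave 1 CL and 1 PI library. The design asked how gene expression compared between WT and KO animals after the occlusion.

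HIF-1 is a pair of proteins, an alpha subunit encoded by Hif1a and a constant partner encoded by Arnt. While oxygen is present, prolyl hydroxylases such as the products of Egln1 and Egln3 mark the alpha subunit for binding by the VHL protein and for destruction, so the subunit is controlled mainly as a protein rather than through its mRNA. When oxygen is low the subunit persists, enters the nucleus and binds hypoxia response elements near genes of glucose use, blood vessel growth and mitochondrial turnover, a response well known in ischemic brain.

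The core of a hypoxia response element reads ACGTG or GCGTG. RefSeq promoter windows on GRCm38.p6, from 250 bases before to 50 bases after a transcription start site, were found for all 10 genes, 13 windows in all. The 4 windows below show the gene that differed between PI and CL in both genotypes (Pdk1), the gene with the largest fitted difference (Adm), the gene with the most cores (Bnip3) and a window with none (the first of 2 for Vegfa). Each is written 5′ to 3′ along the gene's strand, with cores in capitals. A core on the opposite strand reads CACGT or CACGC.
Pdk1, chr2:71872974-71873273, plus strand: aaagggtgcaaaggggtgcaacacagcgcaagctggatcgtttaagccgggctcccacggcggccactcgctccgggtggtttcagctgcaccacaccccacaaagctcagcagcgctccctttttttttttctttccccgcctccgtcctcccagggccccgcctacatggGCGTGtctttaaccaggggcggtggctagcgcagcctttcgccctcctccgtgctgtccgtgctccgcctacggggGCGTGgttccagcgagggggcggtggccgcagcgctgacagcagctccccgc
Adm, chr7:110627407-110627706, plus strand: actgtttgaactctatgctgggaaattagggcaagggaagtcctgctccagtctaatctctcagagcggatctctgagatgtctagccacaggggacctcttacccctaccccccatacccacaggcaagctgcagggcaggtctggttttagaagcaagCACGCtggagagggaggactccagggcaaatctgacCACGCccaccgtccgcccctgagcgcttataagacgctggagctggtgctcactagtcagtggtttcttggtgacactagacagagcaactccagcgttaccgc
Bnip3, chr7:138909457-138909756, minus strand: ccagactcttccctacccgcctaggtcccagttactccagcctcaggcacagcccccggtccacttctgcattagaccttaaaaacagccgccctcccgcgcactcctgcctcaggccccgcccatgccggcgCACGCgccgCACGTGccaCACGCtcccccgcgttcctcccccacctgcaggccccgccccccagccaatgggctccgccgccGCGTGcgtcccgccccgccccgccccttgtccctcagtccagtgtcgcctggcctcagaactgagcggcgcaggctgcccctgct
Vegfa, chr17:46032328-46032627, minus strand: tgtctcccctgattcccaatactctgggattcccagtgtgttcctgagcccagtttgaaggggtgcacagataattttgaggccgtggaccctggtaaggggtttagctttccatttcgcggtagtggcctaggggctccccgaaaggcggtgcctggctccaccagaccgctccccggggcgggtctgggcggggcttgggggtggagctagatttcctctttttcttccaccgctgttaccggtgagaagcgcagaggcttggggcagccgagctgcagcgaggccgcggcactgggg

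The Pdk1 window held 2 GCGTG cores, starting at positions -78 and -2 from the start site. In the Adm window, 2 GCGTG cores lay on the opposite strand. The Bnip3 window held 5 cores, 2 of them overlapping within a CACGTG, a palindrome that reads as ACGTG on both strands and is also the core of the E-box bound by other factors. At least 1 core of either kind was found in 11 of the 13 windows and in at least 1 window of each of the 10 genes, against 43.8% of all 32851 windows and 46.7% of all genes with a window. The ACGTG core was in 9 of the 13 windows (19.6% of all windows) and the GCGTG core in 8 (32.4% of all windows). Both cores hold a CG, and G and C made up 40.3% to 86% of the bases in the 13 windows. The shares over all windows were not matched for base composition. A match of letters is not evidence of binding, and enhancers outside the windows were not searched.

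**Figure D1:**
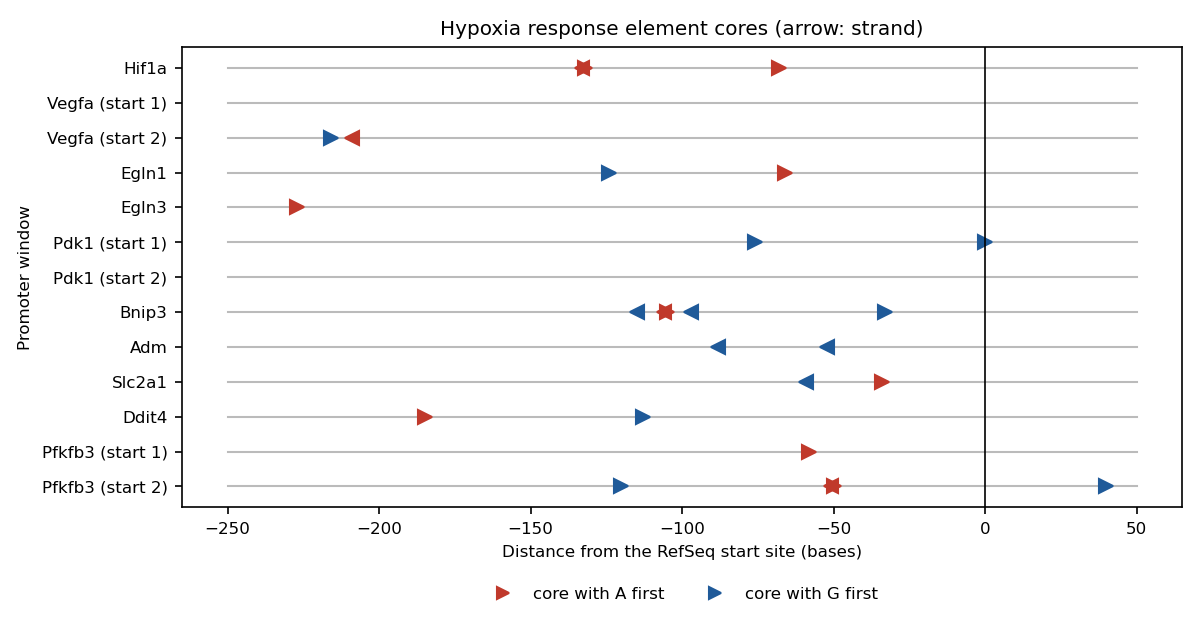
Positions of hypoxia response element cores in the 13 RefSeq promoter windows of the 10 genes; the x axis is the distance in bases from the start site, each grey line is 1 window, and arrows point along the strand of the core. The first Vegfa window and the second Pdk1 window hold no core, while the Bnip3 window holds 5, a pair of which overlap.

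The libraries held 3.76 to 10.5 megareads (median 6.92), as read from the steps in low values, and a count of 3 reads, taken as the limit for a gene at 0, was worth 0.285 to 0.797 CPM (the reads of a gene relative to the size of its library). The shallowest library, CL KO replicate 6, stood apart, being among the 2 lowest or 2 highest values of its group in 89.4% of genes (53.0% to 80.7% in other libraries). The deposited log2 values had been Winsorized, so the lowest and highest value of each gene in each group of 6 cannot be recovered. Levels are therefore given as the second lowest, the median and the second highest CPM of a group, and differences are of the mean of the 4 recovered inner values on the log2 scale. Cdr1as lay at 2594 to 3004 CPM in PI WT and at or under 0.169 CPM in PI KO, and at 3386 to 3809 CPM in CL WT and at or under 0.148 CPM in CL KO, which matches the genotype labels. Sums of cell type markers are instead the lowest to the highest of the 6 libraries, from the deposited values, whose spread the Winsorizing narrows. All 8 cortical excitatory neuron markers were present. Their summed level was lower in PI than in CL, 1690 to 1825 CPM against 2025 to 2167 CPM in WT and 1599 to 1743 CPM against 2075 to 2245 CPM in KO. In WT 2 of them, Rasgrf2 and Camk2a, were called lower and 2 had positive differences, and in KO 3 were called lower. The 6 interneuron markers went the other way by sum, with 569 to 669 CPM in PI WT and 550 to 612 CPM in CL WT. Of these Vip was called lower in WT. The 6 astrocyte markers summed to 6288 to 6690 CPM in PI WT and 7275 to 7672 CPM in CL WT, with Aqp4 called higher and Slc1a2, Gjb6 and Gja1 lower. The 6 oligodendrocyte markers summed to 1429 to 2039 CPM in PI WT and 2080 to 2272 CPM in CL WT, with only Cnp called lower. The 8 endothelial markers summed to 97.2 to 147 CPM in PI WT and 107 to 153 CPM in CL WT, although 5 of them had positive differences (median 0.15) and none was called. None of 8 neutrophil and monocyte markers was listed in the tables of PI and CL. In the table of PI KO and PI WT 2 of them were listed, with a summed level of 3.39 to 9.32 CPM in KO and 2.20 to 4.12 CPM in WT and neither called. The 6 microglia markers summed to 155 to 176 CPM in PI WT and 151 to 163 CPM in CL WT. In KO they summed to 171 to 207 CPM in PI and 160 to 174 CPM in CL. In each genotype 2 were called higher and 1 lower in PI. The 4 listed red cell markers had positive differences in both genotypes, and no red cell or pericyte marker was called. In KO, Gad2 and Aqp4 were called higher in PI and Gja1, Slco1a4 and Abcb1a lower. The part of these shifts in the results below was not tested, and in bulk tissue fewer cells of a type and less RNA per cell cannot be told apart.

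In WT cortex, Pdk1 was the 1 gene of the 10 that rose in PI at an adjusted p under 0.05, by 1.26-fold. Over all 14489 genes of that comparison, 5.20% were called higher and 5.40% lower. In KO cortex Pdk1 was again the 1 gene called higher, by 1.19-fold, among the 9 genes listed, where 5.11% of 14338 genes were called higher and 4.94% lower. The share of members called was thus near the background in both genotypes. Adm, Pfkfb3 and Hif1a had positive differences in WT that did not pass the adjustment. The median difference was 0.11 over the 10 genes in WT (0.01 over all genes) and -0.01 over the 9 genes in KO (0.00 over all genes). The 4 inner values of PI and CL did not overlap for 4 of 10 genes in WT, all higher in PI (13.2% of all genes), and for 1 of 9 in KO (13.4%). Adm, 1 of the 4 in WT, may be listed there only through its PI level. Its part in the WT count and median carries that limit.

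**Figure D2:**
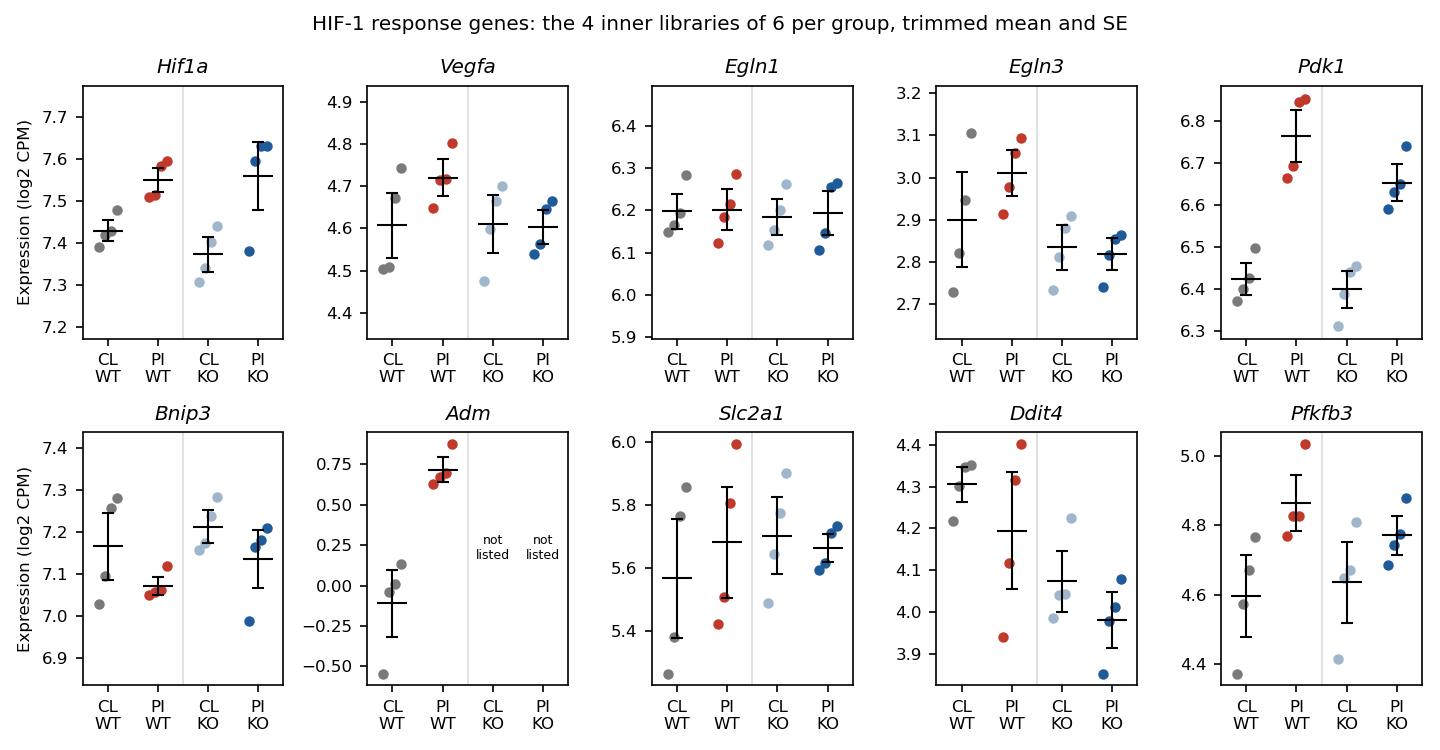
Expression in log2 CPM (y axis, its own range in each panel) of the 10 genes in the 4 groups; points are the 4 inner libraries of 6, the bar is their mean and the whiskers its SE. The WT and KO pairs come from separately scaled tables, and the PI points of Pdk1 lie above all its CL points in both genotypes.

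The regulators of the pathway came first. Hif1a, the oxygen-regulated subunit (chromosome 12, 73901375 to 73947530, plus strand, GENCODE M21), lay at 168, 172 and 178 CPM in CL WT and at 182, 187 and 193 CPM in PI WT. The PI values were all above the CL values, by a small margin. The difference was 0.12 on the log2 scale (SE 0.05, 95% confidence interval 0.01 to 0.23), with an adjusted p of 0.174. In KO it lay at 158, 166 and 174 CPM in CL and at 167, 196 and 198 CPM in PI. These inner values overlapped, since 1 of the 4 PI values fell among those of CL. The difference there was 0.19 (SE 0.08, interval 0.02 to 0.35, adjusted p 0.157). In the dependent trimmed-mean test, with the animal as a block, the adjusted p was 0.190 in WT and 0.0621 in KO. Exons of Hif1a share 330 bases with the antisense gene Gm15283 and 148 bases with Gm49321. The use of strand in counting is not given in the sources used here, so reads of those stretches are uncertain.

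Egln1, the main prolyl hydroxylase acting on the alpha subunit (chromosome 8, 124908587 to 124949324, minus strand), was at 71.0, 72.4 and 77.9 CPM in CL WT and at 69.6, 73.5 and 78.1 CPM in PI WT. The groups overlapped almost fully. The WT difference was 0.00 (SE 0.07), and its 95% interval of -0.14 to 0.15 spans folds of 0.908 to 1.11. The KO difference was 0.01 (interval -0.15 to 0.16). Egln3 encodes a prolyl hydroxylase that is itself a HIF target (chromosome 12, 54178981 to 54203860, minus strand). It was at 6.63, 7.38 and 8.61 CPM in CL WT and at 7.54, 8.10 and 8.54 CPM in PI WT. The PI values lay inside the CL range. The differences were 0.11 in WT (SE 0.14, interval -0.18 to 0.41, adjusted p 0.688) and -0.02 in KO (SE 0.13, interval -0.29 to 0.26, adjusted p 0.959).

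Among the genes of glucose metabolism, Pdk1 encodes a kinase that inhibits pyruvate dehydrogenase and so holds pyruvate back from the mitochondrial citric acid cycle (chromosome 2, 71873224 to 71903858, plus strand). In WT it was at 82.8, 85.3 and 90.4 CPM in CL and at 101, 109 and 115 CPM in PI. Every recovered PI value exceeded every recovered CL value. The deposited values, being Winsorized, then had to be higher in PI in 6 of 6 animals and add nothing to this. The difference was 0.34 (SE 0.07, 95% interval 0.19 to 0.49, adjusted p 0.00760 by the moderated trimmed-mean test). In KO it was at 79.5, 85.3 and 87.7 CPM in CL and at 96.4, 99.7 and 107 CPM in PI. Again the groups did not overlap, which fixed the 6 of 6 animals with higher deposited values in PI. The difference was 0.25 (SE 0.07, interval 0.11 to 0.40, adjusted p 0.0321). The KO call was lost with a centring of groups on the median gene (0.22, adjusted p 0.0546) and when 1 prior variance was used for all genes (adjusted p 0.0934). Differences of Winsorized means (the outer values set to the recovered second lowest and second highest) were also taken without each animal in turn. They ran from 0.30 to 0.35 in WT and from 0.23 to 0.29 in KO. Without CL KO replicate 6 alone the KO difference was 0.25. The outer values had been replaced over all 6 libraries before an animal was left out. Leaving out animals therefore cannot show whether a single animal carries the difference.

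Pfkfb3 encodes the enzyme that makes fructose 2,6-bisphosphate, an activator of glycolysis (chromosome 2, 11471433 to 11554077, minus strand). In WT it was at 20.7, 24.6 and 27.22 CPM in CL and at 27.25, 28.4 and 32.8 CPM in PI. The PI values began just above the highest recovered CL value. The difference was 0.27 (SE 0.12, interval 0.01 to 0.52), with an adjusted p of 0.184. In KO it was at 21.3, 25.3 and 28.1 CPM in CL and at 25.7, 27.1 and 29.4 CPM in PI. Those groups overlapped. The KO difference was 0.14 (SE 0.11, interval -0.11 to 0.38, adjusted p 0.510). In the dependent trimmed-mean test, with the animal as a block, the WT interval was 0.07 to 0.46 (adjusted p 0.0514). The KO adjusted p of that test was 0.453.

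Slc2a1 encodes the glucose transporter GLUT1 of brain endothelium and glia (chromosome 4, 119108711 to 119137983, plus strand). It was at 38.5, 47.6 and 58.0 CPM in CL WT and at 42.9, 50.5 and 63.8 CPM in PI WT. The groups overlapped over most of their range. The differences were 0.12 in WT (SE 0.19, interval -0.29 to 0.52, adjusted p 0.772) and -0.04 in KO (SE 0.11, interval -0.27 to 0.19, adjusted p 0.867). With the animal as a block the intervals were narrower, -0.07 to 0.30 in WT and -0.22 to 0.15 in KO, and still included 0. Without CL KO replicate 6 the KO difference of Winsorized means went from -0.04 to 0.0045 and changed sign. Slc2a1 had the widest spread of the 10 genes in PI WT, and the widest after Adm in CL WT. Its inner values spanned 0.59 on the log2 scale in CL WT and 0.57 in PI WT, then 0.41 in CL KO and 0.14 in PI KO. Its exons share 105 bases with the antisense gene Gm12868.

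The spread of Slc2a1 was set beside the mean of the 8 endothelial markers, a view chosen after the values were seen. In CL WT, animals 1, 4 and 6 had 5.77, 5.86 and 5.86 log2 CPM of Slc2a1 and marker means of 3.64, 3.66 and 3.65. Animals 2, 3 and 5 had 5.38, 5.27 and 5.27 of Slc2a1 and marker means of 3.10, 3.17 and 3.09. The libraries high in Slc2a1 were thus the ones high in the markers. In PI WT, animals 1, 3 and 6 had the higher values of both, with Slc2a1 at 5.99, 5.81 and 5.99 and marker means of 3.83, 3.68 and 3.80. CL KO departed from this, since animal 6 had 5.90 of Slc2a1 and the lowest marker mean of its group, 3.18. The part of vessel content in the level of Slc2a1 was not tested.

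**Figure D3:**
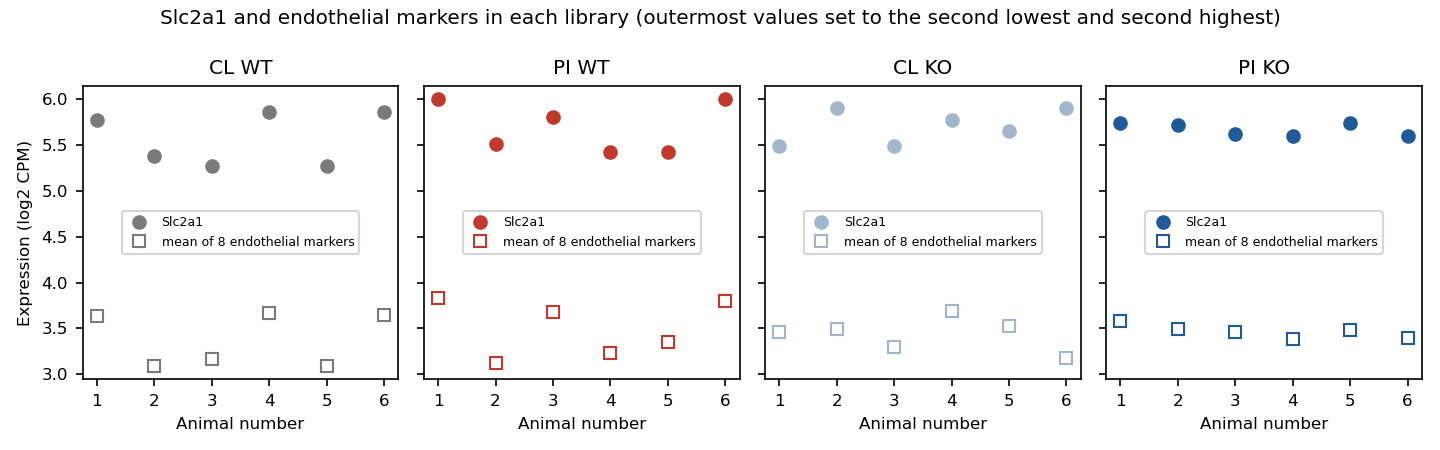
Recovered log2 CPM (y axis) of Slc2a1 (filled circles) and the mean of 8 endothelial markers (open squares) in each library, by animal number (x axis) and group; the outermost values of a gene in a group are set to the second lowest and second highest. In CL WT animals 1, 4 and 6 are high in both, and in CL KO animal 6 pairs a high Slc2a1 value with a marker mean of 3.18.

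Of the vascular genes, Vegfa encodes the main growth factor for endothelium (chromosome 17, 46016993 to 46032369, minus strand). It was at 22.7, 24.1 and 26.8 CPM in CL WT and at 25.1, 26.3 and 27.9 CPM in PI WT. PI was slightly higher with wide overlap. The WT difference was 0.11 (SE 0.09, interval -0.08 to 0.31, adjusted p 0.503), which leaves folds up to 1.24 within the interval. The KO difference was -0.01 (SE 0.09, interval -0.20 to 0.19, adjusted p 0.977). Adm encodes adrenomedullin, a peptide that widens vessels (chromosome 7, 110627661 to 110629820, plus strand). It was at 0.686, 0.991 and 1.09 CPM in CL WT and at 1.55, 1.61 and 1.84 CPM in PI WT. The groups did not overlap. Adm had the largest difference of the 10 genes, 0.83 or 1.78-fold, but also the largest error (SE 0.34, interval 0.10 to 1.56) and an adjusted p of 0.151. These levels are low beside the 3-read limit of 0.356 to 0.514 CPM in CL WT. With 1 prior variance for all genes the adjusted p was 0.0428, and with the animal as a block in the dependent trimmed-mean test it was 0.216. Adm was not listed in the table of PI KO and CL KO, so its KO difference was not analysed here. It was also not listed for CL KO and CL WT, while both comparisons with PI WT listed it. Adm may therefore be listed in WT only through its PI level, which would favour a rise.

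The last pair are genes of stress and mitochondrial turnover. Bnip3 encodes a mitochondrial outer membrane protein that promotes mitophagy (chromosome 7, 138890836 to 138909519, minus strand). It was at 130.5, 145 and 155 CPM in CL WT and at 132, 133 and 139 CPM in PI WT. PI WT sat in the lower part of the CL range. The differences were -0.09 in WT (SE 0.07, interval -0.25 to 0.06, adjusted p 0.491) and -0.08 in KO (SE 0.07, interval -0.23 to 0.08, adjusted p 0.568). These intervals reach folds of 1.05 and 1.06 at most, so a rise of the size of Pdk1 lies outside them. Exons of Bnip3 share 504 bases with the antisense gene Gm45507. Ddit4 encodes REDD1, an inhibitor of the growth kinase mTORC1 (chromosome 10, 59949669 to 59951834, minus strand). It was at 18.6, 20.04 and 20.4 CPM in CL WT and at 15.4, 18.6 and 21.1 CPM in PI WT. The groups overlapped, with PI the more scattered. The differences were -0.11 in WT (SE 0.12, interval -0.38 to 0.16, adjusted p 0.653) and -0.09 in KO (SE 0.11, interval -0.33 to 0.14, adjusted p 0.655).

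Per kilobase of merged exons in CL WT, Bnip3 had the highest level (5.99 log2 CPM per kilobase), followed by Hif1a (4.87) and Egln1 (4.35). Slc2a1 (3.76), Ddit4 (3.49) and Pdk1 (3.46) formed the middle of the order. These neighbours lay closer together than the inner values of Slc2a1 were spread. Vegfa (2.51), Pfkfb3 (1.68) and Egln3 (1.49) followed, and Adm was lowest at -0.80. The most abundant of these transcripts, Bnip3, Hif1a and Egln1, were not among those called between PI and CL.

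The comparison of genotypes asked whether loss of ciRS-7 went with other levels of these genes. In PI cortex none of the 10 genes was called between KO and WT, where 0.0208% of 14452 genes were called, and in CL cortex none of the 9 listed, where 0.0279% of 14323 were called. Those counts come from the moderated trimmed-mean test; limma on the deposited values called 1 of the genes in each. At an unadjusted p under 0.05 there were 0 of the 10 genes in PI (5.75% of all genes) and 1 of the 9, Ddit4, in CL (5.73% of all genes).

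Ddit4 was lower in KO by value on both sides. In CL it was at 18.2, 19.6 and 19.98 CPM in WT and at 15.6, 16.2 and 18.3 CPM in KO. A single pair of inner values overlapped between those groups. The difference was -0.23 (SE 0.09, 95% interval -0.43 to -0.02), with an adjusted p of 0.825. The difference of Winsorized means of the recovered values was -0.21, and -0.24 without CL KO replicate 6. In PI it was at 15.7, 19.0 and 21.4 CPM in WT and at 14.8, 16.3 and 17.4 CPM in KO. The PI groups overlapped, and the difference was -0.20 (SE 0.13, interval -0.49 to 0.08, adjusted p 0.877). The CL and PI libraries of an animal are not independent, so these 2 differences do not count as separate evidence.

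Egln3 in PI was at 7.70, 8.26 and 8.70 CPM in WT and at 6.86, 7.29 and 7.45 CPM in KO. It was the 1 gene of the 10 whose inner values did not overlap between genotypes in PI (8.97% of all genes), and no listed member was free of overlap in CL (8.67% of all genes). The difference was -0.19 (SE 0.12, interval -0.45 to 0.08, adjusted p 0.877). Pdk1 in PI was at 104, 111 and 118 CPM in WT and at 98.6, 102 and 109 CPM in KO. Its groups overlapped, with a difference of -0.10 (SE 0.07, interval -0.26 to 0.06, adjusted p 0.887). In CL the Pdk1 difference was -0.02 (interval -0.15 to 0.12). Adm in PI was at 1.56, 1.64 and 1.87 CPM in WT and at 1.30, 1.52 and 1.87 CPM in KO, with a difference of -0.12 (SE 0.30, interval -0.77 to 0.52, adjusted p 0.972).

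The other differences of KO from WT had intervals that include 0. In PI they were -0.11 for Vegfa, -0.09 for Pfkfb3, -0.01 for Slc2a1, 0.00 for Egln1, 0.02 for Hif1a and 0.07 for Bnip3. In CL they ran from -0.06 for Egln3 to 0.14 for Slc2a1. Hif1a in CL differed by -0.05 (SE 0.05, interval -0.17 to 0.07). The tightest interval for KO against WT in PI was that of Bnip3, -0.08 to 0.23.

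**Figure D4:**
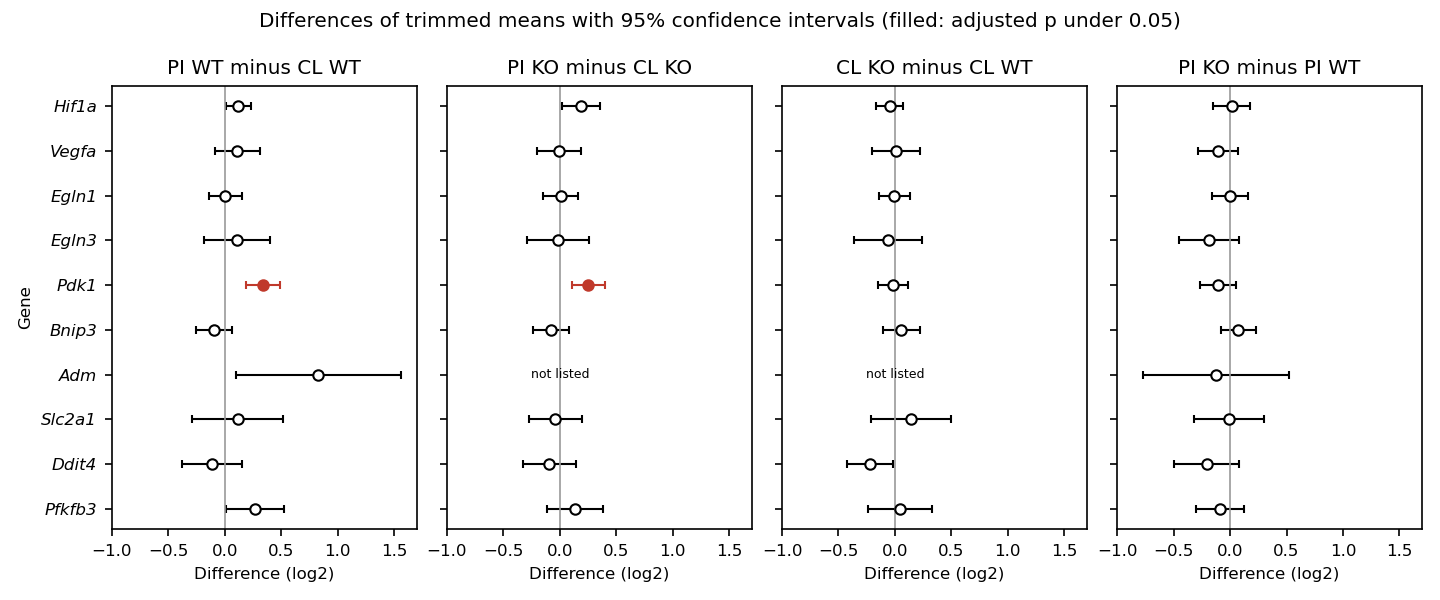
Log2 differences (x axis) of the 10 genes (y axis) in the 4 comparisons, with 95% confidence intervals unadjusted for the number of genes; filled red points have an adjusted p under 0.05. Pdk1 is filled in both comparisons of PI with CL, at 0.34 in WT and 0.25 in KO, and no point is filled between genotypes.

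Whether the PI and CL difference itself depended on genotype was tested as an interaction over 14211 genes in both tables. It called 0 genes (0% of them), with 646 genes at an unadjusted p under 0.05, and limma on the deposited values called 1940. None of the 9 members was called, with adjusted p from 0.992 to 0.999. The Pdk1 response was 0.09 smaller in KO by value, an interaction of -0.09 (SE 0.10, interval -0.29 to 0.12). The interaction was -0.15 for Slc2a1 (interval -0.65 to 0.34), -0.13 for Pfkfb3 (interval -0.49 to 0.23), -0.13 for Egln3 and -0.12 for Vegfa. It was 0.06 for Hif1a, 0.02 for Bnip3 and for Ddit4, and 0.00 for Egln1. The intervals for Slc2a1 and Pfkfb3 are wide enough to hold differences larger than the WT Pdk1 response of 0.34. The same holds for Egln3 (-0.50 to 0.25), Vegfa (-0.39 to 0.15) and Ddit4 (-0.33 to 0.37).

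A further 3 lists held other genes of the pathway. Of 18 regulators and partners of HIF, 2 rose and 1 fell in PI WT (adjusted for all genes, 10.6% of which were called), and the same 3 genes were called in the same directions in PI KO (10.0% of all genes). With the animal as a block the WT counts were 3 and 2. Hsp90aa1 and Hsp90ab1 encode the chaperone HSP90, which holds the alpha subunit among many clients. Hsp90aa1 rose by 0.34 in WT (adjusted p 0.0192) and 0.53 in KO (adjusted p 0.00756), and Hsp90ab1 by 0.20 (adjusted p 0.0461) and 0.30 (adjusted p 0.0195). Cited4, a CBP/p300-binding coactivator, fell from 2.69 to 1.36 CPM (medians) in WT, a difference of -1.03 (adjusted p 0.0249). It fell by 1.19 on the log2 scale in KO (adjusted p 0.0377). Its level is low, with a 3-read limit of 0.303 to 0.490 CPM in PI WT. Cited4 was not listed in the table of PI KO and PI WT, so it may be listed here only through its CL level. That would favour a fall, and the 1 gene counted as lower in each genotype carries that limit. The median difference of the list was 0.00 in WT and 0.04 in KO.

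Of 21 other glycolytic targets, 19 were listed, and 3 rose in PI WT while none fell (5.20% and 5.40% of all genes). Hk2, the hexokinase of the first step of glycolysis, went from 3.03 to 5.68 CPM (medians), a difference of 0.95 (adjusted p 0.00543). Ldha, the lactate dehydrogenase subunit that turns pyruvate into lactate, rose by 0.38 (adjusted p 0.00419). Pfkl, a phosphofructokinase subunit, rose by 0.32 (adjusted p 0.0153). In KO 1 of 19 rose (5.11% of all genes), Ldha, by 0.46 (adjusted p 0.00314). With the animal as a block the counts were 4 higher and 2 lower in WT and 2 higher in KO. The list medians were 0.03 and 0.06, beside 0.01 and 0.00 over all genes.

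Of 35 other targets outside glycolysis, 32 were listed in WT, of which 4 rose and 3 fell (5.20% and 5.40% of all genes). In KO 31 were listed, of which 5 rose and 0 fell (5.11% and 4.94% of all genes). With the animal as a block the WT counts were 5 and 8. Hmox1, the heme oxygenase induced by several stress pathways, went from 1.654 to 11.7 CPM (medians) in WT, a difference of 2.78 (adjusted p 0.000448), and rose by 2.76 in KO (adjusted p 0.000452). Lox, which cross-links collagen, rose by 2.47 in WT (adjusted p 0.000147) and 2.54 in KO (adjusted p 3.67e-05). Lox was not listed for CL KO and CL WT, so it may be listed here only through its PI level. That would favour a rise, and its part in the counts above carries that limit. Anxa2, a calcium-dependent membrane-binding protein, went from 4.63 to 10.9 CPM (medians) in WT, a difference of 1.25 (adjusted p 0.00271), and rose by 1.02 in KO (adjusted p 0.0200). Stc1, a secreted glycoprotein, fell by 0.87 in WT (adjusted p 0.0136), Vldlr, a lipoprotein receptor, fell by 0.27 (adjusted p 0.00713), and Mxi1, an antagonist of MYC, fell by 0.26 (adjusted p 0.0463). The list medians were -0.02 in WT and -0.02 in KO, and 1 gene of the list, Flt1, is also among the endothelial markers. Among the genes of the 3 lists that were tested there, none was called between genotypes or in the interaction.

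**Figure D5:**
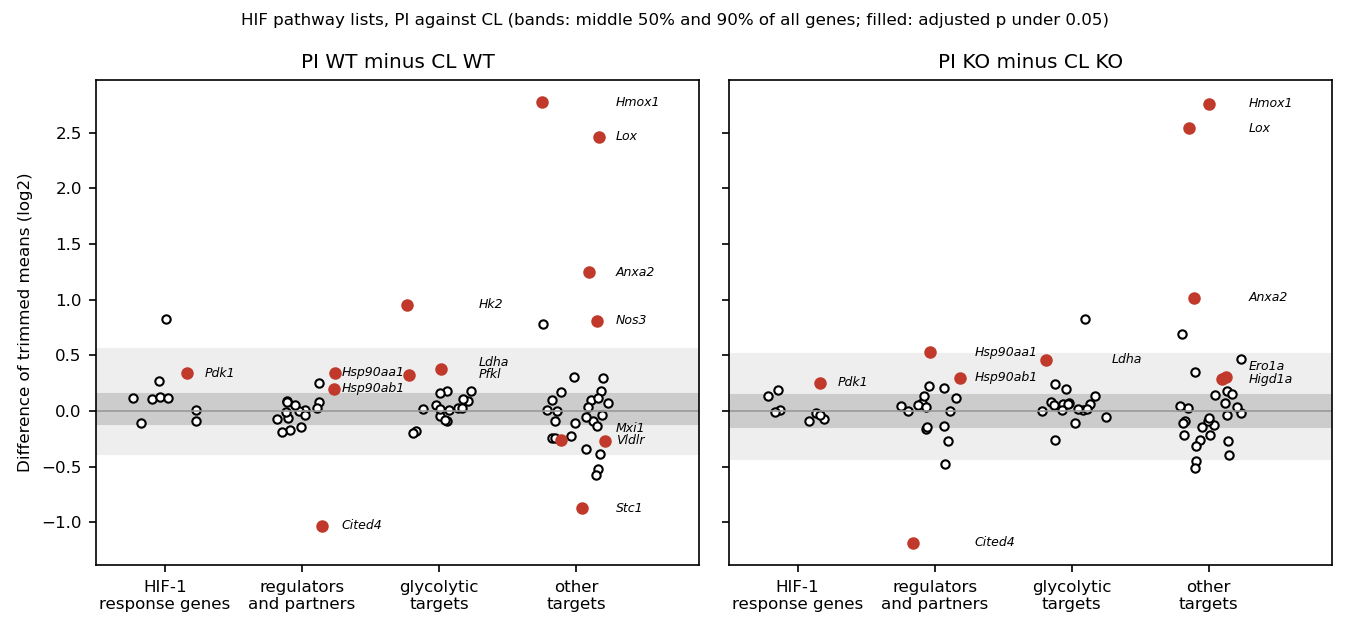
Log2 difference of PI from CL (y axis) for the HIF-1 response genes (10 in WT, 9 in KO) and 3 further lists of the pathway, in WT and KO; grey bands hold the middle 50% and 90% of all genes, and filled red points, which are named, have an adjusted p under 0.05. Most points lie inside the bands, while Hmox1 (2.78 and 2.76) and Lox (2.47 and 2.54) lie far above them. Lox may be listed here only through its PI level.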

How the data were processed

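Cortex RNA, depleted of ribosomal RNA, was sequenced in 24 libraries, grouped by their titles. The values deposited by the authors are log2 CPM per gene, in 4 tables of 2 groups each, scaled separately, per the file headers. The build is mm10, per the submitters' processing notes. The aligner, the counting and the scaling are not given in the sources used here. In every group the 2 lowest and the 2 highest log2 values of a gene are tied at the quartiles (0.75 of the second value plus 0.25 of the next), which understates the spread. The 4 inner values were solved from this. A count test was not run, since the outer values of each group are lost.

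Trimmed means were compared with the Winsorized sum of squares as error (6 degrees of freedom for 2 groups, 12 for the interaction), moderated with limma 3.58.1 in R 4.3.3 with a trend. Tests were two-sided, with Benjamini-Hochberg adjustment over all genes of a table, and called at an adjusted p under 0.05. The procedure was tested on simulated data. The 10 members and all lists were chosen with earlier results of these data known. From each further list up to 3 called genes per direction and genotype with the largest change were named, and 1 gene of the further lists is not reported here. PI and CL libraries share an animal by their titles. Deviations of the same animal correlated at -0.01 to 0.17 in WT and -0.04 to 0.16 in KO, and the animal was a block in an alternative. KO and WT animals share numbers only. The p-values measure the spread between these animals. Depth was read from the steps of low CPM values (82.7% to 90.5% whole), and limits cover counting error only. Symbols were placed with GENCODE M21 (GRCm38, the build of mm10). The 7 alternatives changed the test, the block, the prior variance, the pseudocount (1 CPM), a filter (1 CPM) and the centring.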

Additional observations from a re-analysis of the deposited data

How the results depend on the processing

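The direction of every member's difference was the same under the 7 alternatives, except that Egln1 turned under centring of groups on the median gene (-0.028 in WT and -0.027 in KO, adjusted p 0.849 and 0.863). Applied to the deposited values, limma called 6459 genes in PI WT against CL WT, 6666 in PI KO against CL KO, 2388 in PI KO against PI WT, 2311 in CL KO against CL WT and 1940 in the interaction, where the trimmed-mean test called 1537, 1440, 3, 4 and 0. It called 4, 2, 1 and 1 members in the first 4 comparisons, adding Hif1a, Adm and Pfkfb3 in WT, Hif1a in KO, Egln3 between genotypes in PI and Ddit4 in CL. The Winsorizing narrows the spread that test reads. With limma and the replicate block the counts were 6614, 6759, 1800, 1868 and 2216 genes, with 4 members in WT, 3 in KO (Bnip3 added, adjusted p 0.0389) and 1 in CL (Ddit4). The replicate block in the dependent trimmed-mean test gave 6 genes in PI and 85 in CL between genotypes, where the number pairs different animals, and 1 in the interaction, and it changed no call of a member. With 1 prior variance for all genes 1015 and 739 genes were called in WT and KO, with 2 members in WT (Adm added) and 0 in KO. Centring gave 0 members in KO, and moved the calls to 636 higher and 1053 lower in WT (main 754 and 783) and 589 and 1017 in KO (main 732 and 708). The pseudocount and the filter changed no call of a member. Leaving out animals and CL KO replicate 6 were chosen after seeing the data, and used values Winsorized over all 6 libraries beforehand. Depth limits Adm most, whose level in CL WT is close to the 3-read limit.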
